A study of Rattus norvegicus with 6 samples.

Results

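Kidney RNA of 2 rat strains was compared for 10 genes that supply tissues with fatty acids, store them as fat or bring in glucose under insulin: Lpl, Angptl4, Vldlr, Cd36, Fabp3, Fabp4, Plin2, Cidec, Pnpla2 and Slc2a4. The genes were taken by name, as the probe sets whose only gene symbol in the platform annotation was one of these. This gave 15 probe sets for the 10 genes, out of 31042 probe sets and 14217 named genes on the array, with 2 probe sets for Slc2a4 and for Plin2, 4 for Vldlr and 1 for each of the others. A further probe set that the annotation assigns to Cd36 together with another gene was not used.

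The 3 Dahl S rats belong to a strain bred for salt-sensitive hypertension, and the 3 Lewis rats to another laboratory strain. All 6 rats were male and ate a diet with 8% NaCl for 8 weeks, beginning when they were 5 weeks old. Each array carried the whole-kidney RNA of 1 rat. Rats on another diet were not analysed here, so a difference between the strains that exists without salt and one that salt brings on cannot be told apart. In whole-organ RNA, fewer cells of a type and less RNA per cell cannot be told apart either.

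Lipoprotein lipase, the product of Lpl, works on the inner wall of capillaries, where it splits the triglyceride of circulating lipoproteins into fatty acids. Cells take these up with the help of CD36, carry them in the cytosol on fatty acid-binding proteins, and either burn them or store them in lipid droplets coated by perilipins and CIDE proteins. Adipose triglyceride lipase, encoded by Pnpla2, releases them again, and GLUT4, encoded by Slc2a4, is the glucose transporter that insulin moves to the surface of muscle and fat cells. The proximal tubule of the kidney draws much of its energy from fatty acids.

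The clearest differences were in Lpl and Slc2a4, which were 3.16-fold and 2.46-fold lower in Dahl S than in Lewis kidneys, and in Fabp4, which was 1.63-fold higher. These fold changes, and all log2 differences below, are Dahl S minus Lewis on the log2(signal + 16) scale after quantile normalization, which sets every array to the same distribution of values; they are therefore relative to the typical gene, and they understate the change of dim genes. A gene was called when its adjusted p in limma, fitted over all 15797 probe sets above a low-signal filter and adjusted by Benjamini-Hochberg, was under 0.05. All 15 member probe sets passed the filter, which asked for a signal above the overall median of 61.6 on at least 3 of the 6 arrays. By gene, with the brightest probe set standing for each, 3 of the 10 members were lower (Lpl, Slc2a4 and Cidec), against 7.62% of the 9540 genes tested, and 1 was higher (Fabp4), against 9.04%. The other 6 did not pass. The members and the gene lists below were chosen with earlier results of these data known, so their counts cannot show an excess over these shares. The call of Cidec held in only 1 of the 6 fits without 1 array. The median difference was -0.04 over the 10 genes and 0.00459 over all genes tested. The ranges of the strains did not overlap in 5 members, 3 with Dahl S below Lewis (16.7% of all genes) and 2 with Dahl S above (18.4%). Of all genes, 16.7% were called with all 6 arrays, 8.99% to 9.95% without any 1 Dahl S array and 12.9% to 17.7% without any 1 Lewis array. The arrays differed in overall brightness, with median deposited signals of 38.9 to 69.7 in Lewis and 63.4 to 81.2 in Dahl S. In the deposited values, without normalization, the median gene was 0.41 higher in Dahl S.

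**Figure D1:**
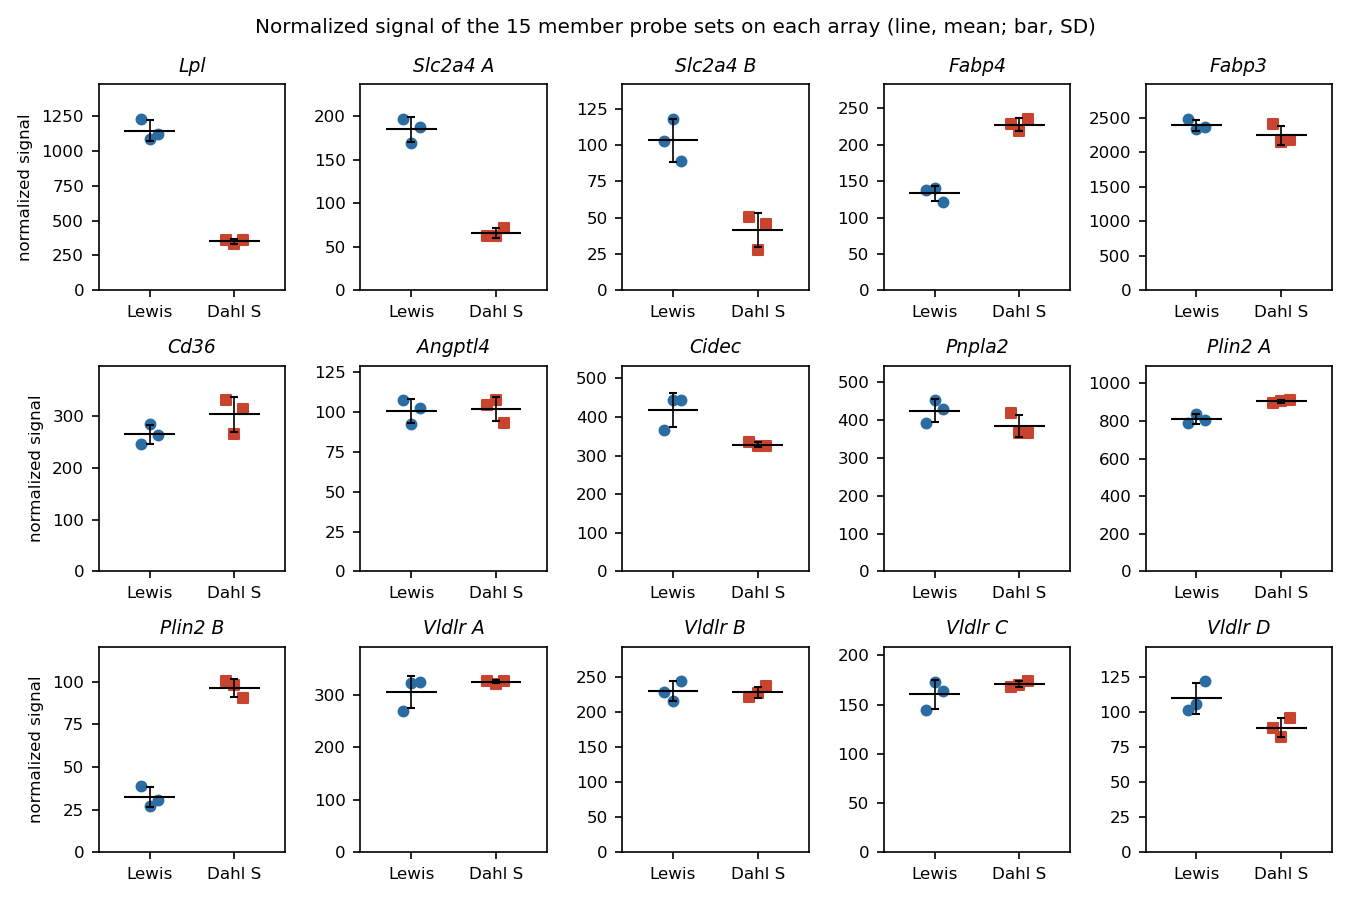
Normalized signal (linear scale from 0, arbitrary units) of each of the 15 member probe sets on the 3 Lewis arrays (blue circles) and 3 Dahl S arrays (red squares), with the strain mean as a line and the SD as a bar. Letters mark probe sets of 1 gene, from the brightest. Lpl and both Slc2a4 probe sets lie lower in every Dahl S rat, Fabp4 and Plin2 B lie higher, and Fabp3, Cd36, Angptl4 and Pnpla2 overlap.

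Lpl carried the largest difference among the 10 genes. Its normalized signal (probe set 1386965_at) was 1229, 1084 and 1122 in Lewis rats 1, 2 and 3 and 359, 333 and 360.4 in Dahl S rats 1, 2 and 3. The lowest Lewis rat was thus far above the highest Dahl S rat, and the rats of a strain lay close together. The means were 1145 ± 74.9 in Lewis and 351 ± 15.6 in Dahl S (SD, n = 3 each), a log2 difference of -1.66 (SE 0.08, 95% interval -1.84 to -1.48, adjusted p = 6.0e-08). Only 15 of the 9540 genes tested differed further in this direction. The difference was also lower in the deposited values, at -1.24 (adjusted p = 0.013), or -1.65 after subtracting the shift of the median gene, and ran from -1.69 to -1.61 with any 1 array left out.

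Neither of the members that act beside the lipase, Angptl4 and Vldlr, passed the threshold. Angptl4 encodes a secreted inhibitor of lipoprotein lipase that fasting and fatty acids induce. Its signal ranged from 92.2 to 107 in Lewis and from 93.1 to 108 in Dahl S, so that the strains overlapped. The difference was 0.01 (SE 0.12, 95% interval -0.24 to 0.27, adjusted p = 0.96). The whole interval lies nearer to 0 than that of Lpl.

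Vldlr encodes the very low density lipoprotein receptor, which binds triglyceride-rich particles and assists lipoprotein lipase. None of its 4 probe sets passed. The brightest, 1389611_at, ranged from 269 to 324 in Lewis and from 321 to 326 in Dahl S, a difference of 0.09 (SE 0.10, adjusted p = 0.58). The next, 1387455_a_at and 1392924_at, differed by -0.01 and 0.08 (adjusted p = 0.97 and 0.63). The dimmest, 1369098_at, was 101 to 122 in Lewis and 82.2 to 95.9 in Dahl S, without overlap, and differed by -0.26 (SE 0.12, adjusted p = 0.17). Against the brightest probe set its strain difference was 0.35 lower (exact permutation p = 0.1, two-sided, the smallest that 3 against 3 rats can give).

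Of the genes for fatty acid uptake and carriage, Fabp4 differed and Cd36 and Fabp3 did not pass. Fabp4 encodes the fatty acid-binding protein of adipocytes, macrophages and many capillary endothelial cells. Its signal (1368271_a_at) was 138, 141 and 121 in Lewis rats 1 to 3 and 229, 219 and 236 in Dahl S rats 1 to 3. Each Dahl S rat was above each Lewis rat. The means were 133 ± 10.7 and 228 ± 8.57 (SD, n = 3 each), and the difference was 0.71 (SE 0.10, 95% interval 0.49 to 0.93, adjusted p = 4.6e-04). It stayed past the threshold with any 1 array left out, at 0.65 to 0.74.

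Cd36 encodes the membrane glycoprotein that binds long-chain fatty acids and also acts as a scavenger receptor. Its signal was 247 to 285 in Lewis and 265 to 332 in Dahl S, with overlap, and the difference was 0.18 (SE 0.10, 95% interval -0.05 to 0.41, adjusted p = 0.27). Fabp3, the fatty acid-binding protein of heart and muscle, which the kidney also makes, was 2327 to 2481 in Lewis and 2144 to 2406 in Dahl S. Its difference was -0.09 (SE 0.07, 95% interval -0.24 to 0.05, adjusted p = 0.37). Both intervals end below the difference measured in Fabp4.

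**Figure D2:**
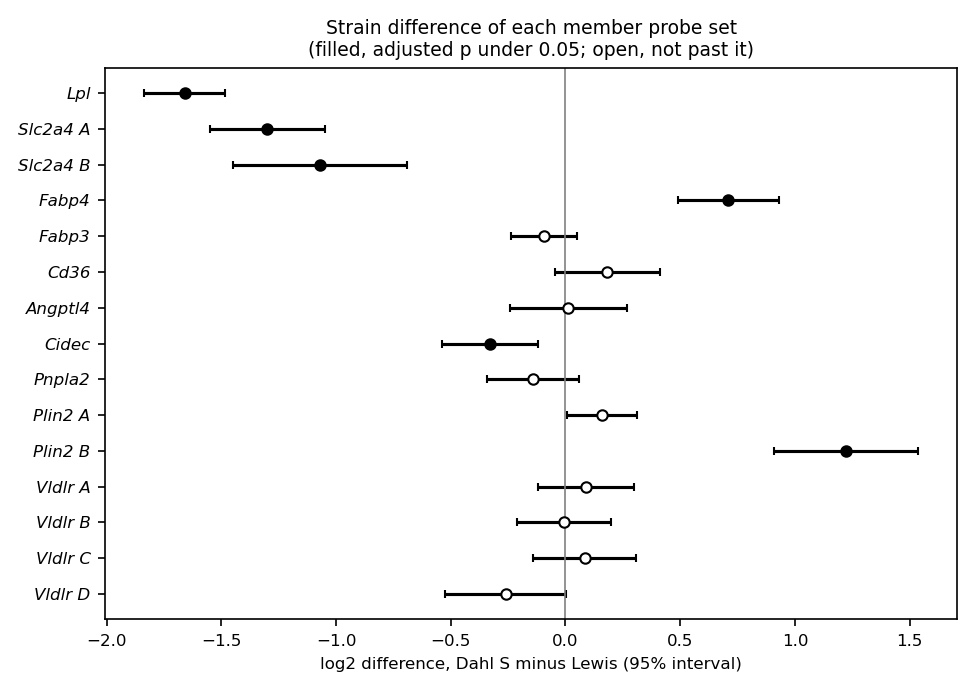
Log2 difference (Dahl S minus Lewis, x axis) of each member probe set with its 95% interval; filled points passed an adjusted p of 0.05. Lpl at -1.66 and Slc2a4 A at -1.30 stand on the left and Fabp4 at 0.71 on the right; Slc2a4 B (-1.07) and Plin2 B (1.22) passed the filter through 1 strain alone, so their fill has no weight. Cidec at -0.33 is the smallest difference called. It turns to 0.10 in the deposited values without normalization, where the median gene was 0.41 higher in Dahl S.

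By their brightest probe sets, Plin2, Cidec and Pnpla2, the genes of the lipid droplet, had differences nearer to 0 than those of Lpl, Slc2a4 and Fabp4. Plin2 encodes perilipin 2, the coat protein of droplets in most cells outside fat tissue, and its 2 probe sets disagreed in size. The brighter, 1390383_at, was 787, 837 and 803 in Lewis rats 1 to 3 and 895, 907 and 913 in Dahl S rats 1 to 3. All Dahl S rats were above all Lewis rats, yet the difference of 0.16 (SE 0.07, 95% interval 0.01 to 0.31) did not pass (adjusted p = 0.15). The dimmer, 1382680_at, was 38.7, 27.2 and 31.0 in Lewis and 100.4, 97.9 and 90.3 in Dahl S. Its difference was 1.22 (SE 0.15 with no filter).

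This dimmer Plin2 probe set lay below the overall median in 3 of 3 Lewis rats and passed the filter through the Dahl S rats alone, so that a probe set of this level had to differ to be tested; its filtered test is therefore not given. With no filter, where every probe set was tested, its adjusted p was 0.0016. Its size depended on the pseudocount, with 1.60 for none and 0.74 for 64, and no fit was made without any 1 Dahl S array, where it fell short of the filter. The differences of the 2 probe sets were 1.06 apart (exact permutation p = 0.1, two-sided, the smallest possible). The part of the transcript that each probe set reads was not examined here.

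RefSeq (GRCr8) gives Plin2 2 transcription starts, and the window of each is shown. Whether the starts bear on the disagreement of the probe sets was not tested. Each window holds the 250 bases before and the 50 bases after a start, on the minus strand, 5′ to 3′, with the E-box hexamer CACGTG in capitals.
Plin2, chr5:106228969-106229268: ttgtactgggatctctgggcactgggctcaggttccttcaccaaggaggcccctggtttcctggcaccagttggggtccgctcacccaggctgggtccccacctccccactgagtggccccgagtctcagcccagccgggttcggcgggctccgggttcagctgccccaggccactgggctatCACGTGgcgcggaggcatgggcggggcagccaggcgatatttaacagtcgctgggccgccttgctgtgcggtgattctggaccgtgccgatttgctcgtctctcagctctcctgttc
Plin2, chr5:106228488-106228787: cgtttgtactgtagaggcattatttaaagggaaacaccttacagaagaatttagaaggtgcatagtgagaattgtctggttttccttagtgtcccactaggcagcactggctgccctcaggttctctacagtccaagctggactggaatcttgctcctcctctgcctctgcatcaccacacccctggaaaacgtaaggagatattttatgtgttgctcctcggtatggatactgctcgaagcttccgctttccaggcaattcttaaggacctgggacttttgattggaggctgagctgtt
The E-box was searched on both strands, as were AGGTCA, the hexamer to which nuclear receptors such as PPARs bind, and the TATA box, spelled TATAAA, with matches allowed to overlap. Promoter windows were at hand for 7 of the 10 members, 8 windows in all; Lpl, Slc2a4 and Fabp4 had none. The E-box lay in 1 of the 8, the first Plin2 window, beginning 67 bases before the start, and in 6.42% of all 33469 windows of this length. The receptor hexamer lay in 0 of the 8 windows and in 16.2% of all windows. The hexamer TATAAA, on either strand, lay in the windows of Angptl4 and Cd36, and in 14.2% of all. In Cd36 it was found only as its reverse complement TTTATA, beginning 175 bases before the start. Such matches describe the letters of these windows only.

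Cidec encodes a protein that joins lipid droplets into larger ones and is best known from adipocytes. Its signal was 368, 444 and 445 in Lewis rats 1 to 3 and 337, 325 and 325 in Dahl S rats 1 to 3. Lewis rat 1 lay nearer to the Dahl S rats than to the other Lewis rats, but the strains did not overlap. Relative to the typical gene Cidec was 1.26-fold lower in Dahl S (-0.33, SE 0.10, 95% interval -0.54 to -0.12, adjusted p = 0.034), while the deposited values without normalization gave 0.10 (adjusted p = 0.81), or -0.31 after subtracting the shift of the median gene. Scaling to a common median ended the call (-0.31, adjusted p = 0.084). So did leaving out Lewis array 2 or 3 (both -0.28, adjusted p = 0.11 and 0.083), or Dahl S array 1, 2 or 3 (-0.35, -0.32 and -0.32, adjusted p = 0.092, 0.11 and 0.13). Of the 6 fits without 1 array, the call held only without Lewis array 1 (-0.42, adjusted p = 0.0038). It was also lost with no filter (adjusted p = 0.061) and with no variance trend (adjusted p = 0.053).

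Pnpla2, the lipase that starts the breakdown of stored triglyceride, did not pass. Its signal was 393 to 454 in Lewis and 367 to 419 in Dahl S, with overlap, and the difference was -0.14 (SE 0.09, 95% interval -0.34 to 0.06, adjusted p = 0.34).

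Slc2a4, which encodes the insulin-regulated glucose transporter GLUT4, was lower in Dahl S by its brighter probe set. This probe set, 1367989_at, was 197, 169 and 188 in Lewis rats 1 to 3 and 62.7, 62.1 and 72.0 in Dahl S rats 1 to 3. The lowest Lewis rat was far above the highest Dahl S rat. The means were 185 ± 14.2 and 65.6 ± 5.57 (SD, n = 3 each), and the difference was -1.30 (SE 0.12, 95% interval -1.55 to -1.05, adjusted p = 1.1e-05). Of the 9540 genes, 20 differed further in this direction.

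The dimmer Slc2a4 probe set, 1388958_a_at, was 103, 118 and 88.7 in Lewis and 50.4, 28.0 and 45.6 in Dahl S. Again without overlap, it differed by -1.07 (SE 0.19 with no filter). It passed the filter through the Lewis rats alone, since 0 of 3 Dahl S rats lay above the overall median, so its filtered test is not given; with no filter its adjusted p was 0.011. No fit of it was made without any 1 Lewis array, where it fell short of the filter. Both probe sets gave the same direction in the 3 scalings tried, and in the deposited values the brighter gave -0.92 (adjusted p = 0.039) and the dimmer -0.73. Because the Dahl S signals were near the median of the array, the size depended on the pseudocount: the brighter probe set gave -1.50 with none and -0.94 with 64.

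**Figure D3:**
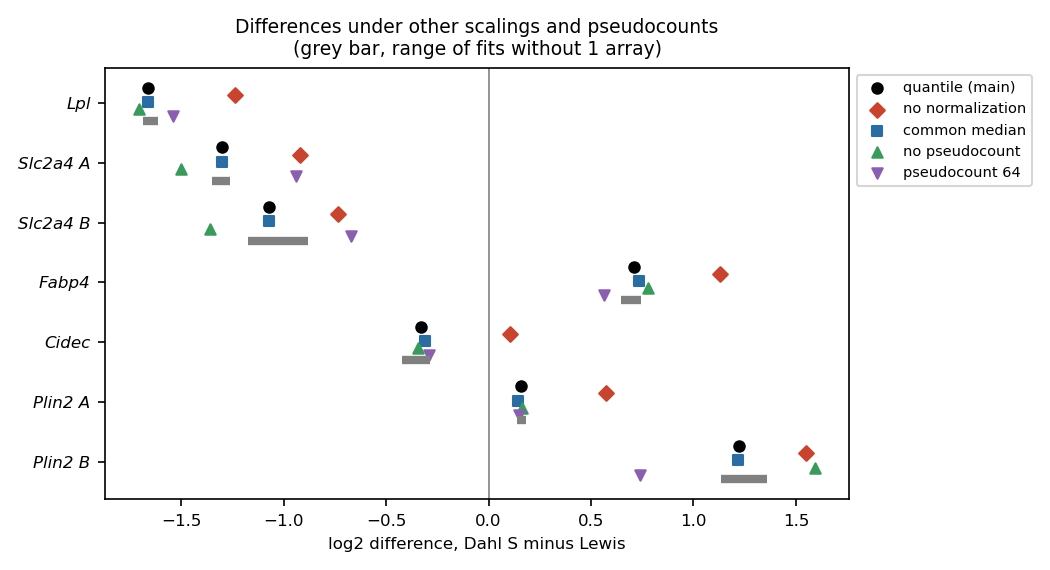
Log2 difference (Dahl S minus Lewis, x axis) of 7 member probe sets under quantile normalization, no normalization, a common median, no pseudocount and a pseudocount of 64, with a grey bar for the range over fits without 1 array. Lpl, both Slc2a4 probe sets, Fabp4 and both Plin2 probe sets keep their side of 0 in the fits made. Cidec moves from -0.33 to 0.10 without normalization, where the median gene was 0.41 higher in Dahl S. Slc2a4 B had no fit without a Lewis array and Plin2 B none without a Dahl S array.

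By a rule of likeness, the genes whose values over the 6 arrays followed Lpl most closely were sought among the other 9539 genes, as the smallest root mean square distance of log2 values after centring each gene on its own mean. These were Ugt2b35 (0.09), a glucuronosyltransferase gene, Urah (0.14), an enzyme gene of urate breakdown, Acadsb (0.16), a dehydrogenase gene of branched-chain acyl-CoA breakdown, Slc2a4 itself (0.19) and the coagulation factor gene F5 (0.19). Nearest to Slc2a4 were Cdc73 (0.09), Rtel1 (0.10), Tsku (0.11), the chemokine gene Cxcl13 (0.12) and Slc25a25 (0.13). With 3 rats in each of 2 strains this measure mostly picks genes with a strain difference of the same size, from -1.99 to -1.50 for the neighbours of Lpl other than Slc2a4.

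Kidney tissue can carry fat, vessels, muscle or leukocytes, in which several of the members are strong. Among adipocyte markers other than the members, 9 of 10 were on the array, 4 passed the filter and 0 were called. Of all genes 16.7% were called in either direction, so a count over 4 genes cannot show a shortfall. All 4 had negative differences, with a median of -0.12. Adipoq, the adipokine gene adiponectin, was 97.7 to 129 in Lewis and 95.6 to 113 in Dahl S (-0.09, adjusted p = 0.70; 0.32 in the deposited values, adjusted p = 0.42). Lep, Cfd, Plin1, Adrb3 and Trarg1 did not pass the filter: leptin (Lep) was at most 8.92 on any array, and the adipsin gene Cfd was 24.0 to 26.6 in Lewis and 28.9 to 37.9 in Dahl S. The summed signal of the 9 markers was 452 to 509 in Lewis and 436 to 451 in Dahl S, slightly lower and without overlap. Of 9 muscle markers on the array 1 passed the filter, with 0 called, against the same 16.7% of all genes. Creatine kinase (Ckm) was at most 15.5 and myoglobin (Mb) at most 11.9 on any array. The skeletal actin gene Acta1, named after its values were seen, also did not pass the filter, and was 1.53 to 10.2 in Lewis and 26.2 to 40.7 in Dahl S, without overlap.

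Relative to the typical gene, markers of other cells in the kidney differed between the strains. These lists were counted in the main fit only, after quantile normalization with all 6 arrays. In the deposited values the median gene was 0.41 higher in Dahl S, a shift larger than the median of each list that was lower. Of 7 macrophage markers tested 5 were higher in Dahl S (71.4%, against 9.04% of all genes), and 0 lower, with a median of 0.47. Their summed signal was 3982 to 4137 in Lewis and 4947 to 5178 in Dahl S. Of 9 endothelial markers 3 were lower (33.3%, against 7.62% of all genes) and 0 higher, with a median of -0.27. Their sums were 4852 to 5062 in Lewis and 3964 to 4068 in Dahl S. Of 10 proximal tubule markers 6 were lower (60%, against 7.62%) and 0 higher, with a median of -0.22. The sum was 40564 to 41587 in Lewis and 35456 to 35746 in Dahl S. Loop and distal tubule markers (3 of 10 lower, 30%) and podocyte markers (3 of 6 lower, 50%) differed too, against the same 7.62%. So did smooth muscle and fibroblast markers (5 of 8 higher, 62.5%, against 9.04%). The part of these cells in the values of Lpl, Fabp4, Slc2a4 and the other members was not tested. All 10 proximal tubule markers and all 10 of the loop and distal tubule were above the filter.

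Genes around the members were read from 5 lists of the same pathways. In the deposited values without normalization 0 of their genes were called. That fit called only 22 of 9677 genes lower and 371 higher, so the 0 cannot set these lists apart from other genes. Of 11 tested genes of lipoprotein supply, 2 were lower (18.2%, against 7.62% of all genes) and 1 was higher (9.09%, against 9.04%), with a median of -0.10. The lower count was 1 without Lewis array 1 or 2 and with the stricter filter; the higher count was 2 without Lewis array 1 and with no variance trend, and 0 with no filter and wherever Lrp1 lost its call. The lower ones encode apolipoproteins of triglyceride-rich particles. Apoc3, an inhibitor of lipoprotein clearance, differed by -0.40 (SE 0.08, adjusted p = 0.0050). In the deposited values it gave 0.04, less than the 0.41 of the median gene. Apoc2, the activator of lipoprotein lipase, was 74.7 to 87.4 in Lewis and 31.5 to 45.8 in Dahl S, a difference of -0.87. It passed the filter through the Lewis rats alone, so its filtered test is not given and its place in the count has no weight. With no filter its SE was 0.16 and its adjusted p was 0.012. Lrp1, an endocytic receptor gene, was higher (0.35, SE 0.10, adjusted p = 0.028), a call lost without Lewis array 3 and without any 1 Dahl S array (highest adjusted p = 0.12). Apoe differed by 0.03 (SE 0.07, adjusted p = 0.83). Gpihbp1, which encodes the capillary anchor of lipoprotein lipase, did not pass the filter, at 11.4 to 21.8 in Lewis and 14.9 to 38.1 in Dahl S.

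Of 12 tested genes of fatty acid uptake and activation 3 were lower relative to the typical gene (25%, against 7.62% of all genes) and 0 higher, with a median of -0.09. In the deposited values none of the 3 was called or below 0. They gave 0.0041 to 0.12, which is less than the 0.41 of the median gene. Slc27a2, a fatty acid transport protein and acyl-CoA synthetase gene of the proximal tubule, differed by -0.27 (SE 0.06, adjusted p = 0.0084), and the acyl-CoA synthetase genes Acsl3 and Acsl1 by -0.34 (SE 0.09) and -0.25 (SE 0.06). The other probe set tested for Acsl1 gave -0.49 (adjusted p = 0.0021). The lower count was 1 without Lewis array 2 or Dahl S array 1 or 2 and with no variance trend, and 0 without Dahl S array 3. The higher count was 1 with a pseudocount of 64. Of all genes, 727 were lower in the main fit, 608 with no variance trend and 514 without Lewis array 2. Without Dahl S array 1, 2 or 3 they were 448, 470 and 414. The brighter probe set of Acsl5 was higher in Dahl S without overlap (0.26, SE 0.08) but did not pass (adjusted p = 0.0502). Its other probe set gave -0.20 (adjusted p = 0.39). Fabp1, the liver-type binding protein gene, did not pass the filter, with at most 17.6 on any array.

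Of 24 tested genes of droplet storage and lipolysis 2 were lower (8.33%, near the 7.62% of all genes), 0 were higher and 22 did not pass, with a median of -0.15. Dgat2, which makes triglyceride, differed by -0.51 (SE 0.08, adjusted p = 7.7e-04), and its other probe set by -0.52. The brighter probe set stayed called with any 1 array left out. It gave -0.07 in the deposited values (adjusted p = 0.87), where the median gene was 0.41 higher in Dahl S. Bscl2, the seipin gene of droplet formation, differed by -0.30 (SE 0.08, adjusted p = 0.018; 0.12 in the deposited values). The Bscl2 call was lost without Lewis array 2 and without any 1 Dahl S array (highest adjusted p = 0.089). The lipase gene Lipe differed by -0.16 (SE 0.15, adjusted p = 0.53; 0.22 in the deposited values), and Plin1, the perilipin of adipocytes, was at most 29.4 on any array and not tested.

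Around Slc2a4, of 21 tested genes of insulin signalling and glucose uptake 2 were lower and 2 higher (9.52% each, near the 7.62% and 9.04% of all genes) and 17 did not pass, with a median of -0.00476. Rab10 and Tbc1d1, which act in the traffic of GLUT4 vesicles, differed by -0.35 (SE 0.08, adjusted p = 0.0081) and -0.41 (SE 0.09, adjusted p = 0.0088). In the deposited values they gave 0.07 and 0.04, less than the 0.41 of the median gene. The other Rab10 probe set gave -0.15 (adjusted p = 0.31) and that of Tbc1d1 -0.46 (adjusted p = 0.019). Mef2a, a transcription factor gene that acts on Slc2a4 in muscle, was higher by 0.30 (SE 0.08, adjusted p = 0.018), and the insulin receptor substrate gene Irs2 by 0.48 (SE 0.15, adjusted p = 0.047). The call of Irs2 was lost without Lewis array 2 or 3 or Dahl S array 2 or 3 (0.37 to 0.44, adjusted p = 0.11 to 0.19), with no filter (adjusted p = 0.12) and with no variance trend (adjusted p = 0.082). Without Dahl S array 3, 0 genes of this list were called, and without Dahl S array 1 the calls of Tbc1d1 and Mef2a were lost as well (adjusted p = 0.052 and 0.071). The insulin receptor gene Insr differed by 0.04 (SE 0.12, adjusted p = 0.86). The glucose transporter genes Slc2a1 and Slc2a2, which do not depend on insulin for their place in the membrane, differed by 0.06 (SE 0.08, adjusted p = 0.70) and -0.19 (SE 0.08, adjusted p = 0.12).

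**Figure D4:**
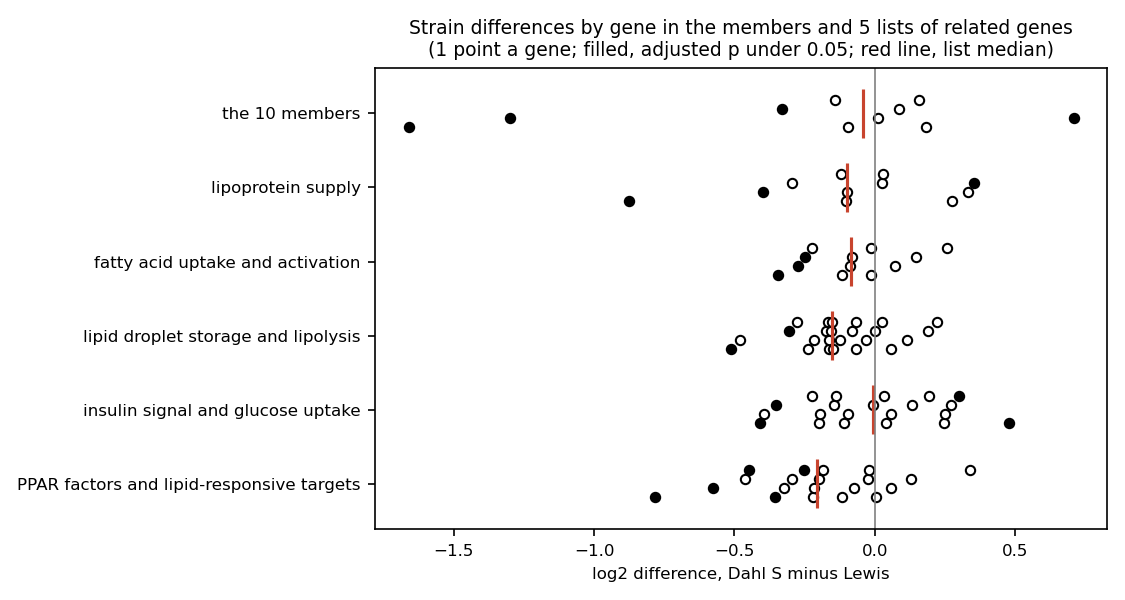
Log2 difference (Dahl S minus Lewis, x axis) of each tested gene in the 10 members and in 5 lists of related genes; filled points passed an adjusted p of 0.05, and red lines are list medians. Lpl and Slc2a4 at the far left of the members lie further from 0 than the genes of the 5 lists, among them Cpt1b at -0.78 and Apoc2 at -0.87, which passed the filter through the Lewis rats alone.

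Several members are known targets of the fatty acid-sensing PPAR receptors. Of 20 tested genes for PPARs, their partners and other targets, 5 were lower relative to the typical gene (25%, against 7.62% of all genes) and 0 were higher, with a median of -0.21. In the deposited values 0 were called, where only 22 of all 9677 genes were called lower. Ehhadh and Acadm gave 0.04 and 0.03 there, less than the 0.41 of the median gene. Cpt1b, a carnitine palmitoyltransferase gene, differed by -0.78 (SE 0.09, adjusted p = 5.9e-05), Klf15, a transcription factor gene of metabolism, by -0.58 (SE 0.12, adjusted p = 0.0059), and the oxidation enzyme genes Ehhadh and Acadm by -0.36 (SE 0.08) and -0.25 (SE 0.06). The fifth was the receptor partner gene Rxra (-0.45, SE 0.14, adjusted p = 0.047), named after its value was seen, whose call was lost without any 1 array other than Lewis array 2 (adjusted p = 0.055 to 0.16). Acadm failed to pass when Dahl S array 2 or 3 was left out (adjusted p = 0.079 and 0.061). With probe sets averaged by gene, 9 were lower and 1 was higher, and without Dahl S array 2 or 3 the lower genes were 3. Ppara and Pparg, the receptor genes of fatty acid oxidation and of fat storage, did not pass the filter. Ppara was 32.7 to 55.7 in Lewis and 15.8 to 21.5 in Dahl S, without overlap but all below the overall median, and Pparg was 31.0 to 52.3 and 24.4 to 45.9.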

How the data were processed

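Per the labels, the authors extracted kidney RNA with TRIzol, labelled it with biotin and hybridized 1 array per rat, and computed signals with GeneChip Operating Software 1.4. The deposited table holds 1 linear intensity for each of 31099 probe sets per array; its scaling target is not given in the sources used here, nor are calls of detection. The authors' deposited intensities were not at a common level, so log2(intensity + 16) was quantile-normalized after leaving out 57 control probe sets. The pseudocount is about the lower quartile of the deposited values (16.2). A normalized signal is the normalized log2 value turned back to linear, less the pseudocount.

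Strains came from the sample titles. Probe sets whose value exceeded the overall median on 3 or more of the 6 arrays were fitted with limma 3.58.1 in R 4.3.3 (lmFit, eBayes with trend, two-sided, Benjamini-Hochberg). The brightest probe set over all arrays stood for a gene in counts. Probe sets were named from the platform annotation, with symbols updated through gene identifiers (20758 of 20826 matched) to RefSeq, assembly GRCr8. Probes were not masked for sequence differences between strains. The steps were also run on simulated arrays, with independent noise in each probe set and a scale factor for each array. Deviations that many probe sets of an array share were not simulated.

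The members and lists were chosen with earlier results of these data known. The named genes are all members, up to 4 called genes per list with the smallest adjusted p, and a fixed set of related genes. Their number, 3 per strain, limits the precision of the arrays: an exact two-sided permutation test cannot go below 0.1.

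Alternatives were the normalization, the pseudocount, the filter, the probe sets of a gene, the variance trend, the replicate number as a block and each array left out.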

Additional observations from a re-analysis of the deposited data

How the results depend on the processing

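The number of members called stayed at 1 higher in all fits except 1: it was 2 with probe sets averaged by gene, through Plin2 (0.69), whose dimmer probe set passed the filter through the Dahl S rats alone. The number lower was 2 or 3 in every fit, 2 to 3 with any 1 array left out, and Cidec was the gene that came and went. Lpl, Fabp4 and the brighter Slc2a4 probe set kept their direction and their call under every alternative run.

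In the deposited values without normalization, where the median gene was 0.41 higher in Dahl S, signs turned for Fabp3 (0.24), Cidec (0.10), Pnpla2 (0.30), Vldlr probe sets 1387455_a_at (0.42) and 1369098_at (0.13), Apoc3 (0.039), Slc27a2 (0.0041), Acsl3 (0.10), Acsl1 (0.12), Bscl2 (0.12), Rab10 (0.074), Tbc1d1 (0.035), Ehhadh (0.044), Acadm (0.027), Lipe (0.22), Slc2a2 (0.22) and Adipoq (0.32). With this setting 371 genes were called higher and 22 lower (94.4% of calls higher, against 54.2% after normalization), and 0 genes of the 5 lists were called. Scaling to a common median turned Apoe (-0.045) and Vldlr 1387455_a_at (0.011), and averaging probe sets by gene turned Vldlr (-0.024) and Insr (-0.099). With any 1 array left out, values on both sides of 0 were given by Angptl4 (-0.040 to 0.066), Apoe (-0.015 to 0.076), Insr (-0.059 to 0.11) and Vldlr 1387455_a_at (-0.049 to 0.037). The cause was not tested.

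Of 333 values for 38 genes and probe sets under the other settings 289 kept their direction and side of the threshold, as did 173 of 219 with 1 array left out. The filters, the replicate block and the variance trend leave the difference itself unchanged, so under these only the call could move. Fits in which a probe set fell short of the filter are not among these values. The counts therefore overstate how well the values held. With no filter 684 genes were called higher and 537 lower of 14217, against 862 and 727 of 9540. Without Dahl S array 1, 2 or 3 the genes called higher were 457, 466 and 433, and those lower 448, 470 and 414.

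Both strains carry replicate numbers 1 to 3. The design text speaks of 3 independent experiments but does not tie the numbers to them. Across probe sets, the deviations of same-numbered arrays from their strain means correlated at -0.046, -0.098 and 0.11. Arrays of different numbers gave -0.070 to 0.13. With 3 arrays per strain these values cannot decide whether the numbers mark pairs, and the main fit had no block. With the number as a replicate block the members called were 1 higher and 3 lower, and of all genes 821 were higher and 716 lower; Irs2 and Rxra did not pass (adjusted p = 0.054 and 0.052). Dim probe sets limit what can be said of Ppara, Gpihbp1 and the second probe sets of Slc2a4 and Plin2.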
